A study of Mus musculus with 63 samples.

Results

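The 9 genes described here are Glul, Oat, Rhbg, Axin2, Lgr5, Tbx3, Rnf43, Slc1a2 and Lect2, pericentral liver genes that are known to depend on WNT signalling. They were picked by gene symbol, and all 9 were present among the 15616 genes of the deposited table. In the liver lobule, endothelial cells of the central vein release WNT ligands and R-spondin 3, and the hepatocytes next to them answer through Frizzled and LRP receptors, beta-catenin and TCF transcription factors. These hepatocytes hold glutamine synthetase and other enzymes and transporters that capture ammonium and glutamate, while urea synthesis and gluconeogenesis dominate near the portal vein. Axin2, Lgr5, Tbx3 and Rnf43 belong to the response itself, since they are targets of the pathway and some of them also act on it.

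Hcfc1 encodes HCF-1, a nuclear cofactor of transcription factors such as THAP11, and lies on the X chromosome. KO males carried the Alb-Cre-ERT2tg transgene, a tamoxifen-activated Cre driven by the albumin promoter and so active in hepatocytes, with a floxed Hcfc1 lox allele on their single X (Hcfc1 hepKO/Y). WT males were floxed mice without Cre according to the protocol, although their genotype label reads C57BL/6. Het females carried the transgene with 1 floxed and 1 intact allele (Hcfc1hepKO/+), and no WT females were analysed here. All groups received tamoxifen by intraperitoneal injection on 3 consecutive days from day 0, at an age of 10 to 14 weeks, and whole liver was homogenised. The 63 libraries comprised 25 WT, 26 KO and 12 Het, with 2 per genotype and day in males from day 0 to day 9, 1 per day afterwards (2 in KO on day 14, 1 of them without a replicate number), and 1 per sampled day in Het. Nothing in the labels says that 2 libraries shared a mouse, and p-values measure the spread between these libraries. That spread came almost wholly from the pairs of days 0 to 9, which gave 20 of the 21 residual degrees of freedom, while days 10 to 14 gave 1.

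Levels are given as RPKM, reads scaled to exon length and to the size of the library, as the authors computed them. One read per kilobase corresponded to an estimated 0.0191 to 0.0704 RPKM in the libraries (median 0.0383), so the weakest members rested on at least 103 estimated reads in any library (Rhbg) and Glul on at least 13351. These limits cover counting error only. Days were grouped into an early (days 3 to 5), a middle (days 6 to 9) and a late window (days 10 to 14), beside day 0 and days 1 to 2. Over all tested genes, the median KO minus WT difference of the deposited values was 0.33, 0.23 and 0.85 (log2 RPKM) in the early, middle and late windows. This median over genes is not the same number as the shift between the medians of the libraries. Differences were therefore taken relative to each library's median gene, in log2 units with their standard errors. Rose, fell and called stand for an adjusted p under 0.05 in limma, both on that scale and on the deposited one, with equal signs. Because the whole liver was sampled, fewer cells of a type and less RNA per cell cannot be told apart. Hcfc1 mRNA did not fall in KO livers: it was 12.977 to 18.093 RPKM in early KO libraries against 5.22 to 8.48 in WT, 1.07 ± 0.12 higher by limma (adjusted p = 4.64e-08). Reads over the whole gene, which take in exons outside the deleted part, therefore do not check the deletion. The labelled tissue matched its markers, with all 8 hepatocyte markers present in every group. In the late window all 8 were lower relative to the median gene, with a median of -0.85, and 3 of them fell, against 11.1% of all genes. In the early window 1 of the 8 markers rose and 2 fell, against 26.5% and 9.61% of all genes, with a median of 0.08. Alb, which encodes serum albumin, carries most of their summed level in WT. It was 2814 to 6212 RPKM in early KO libraries against 47903 to 68881 in WT. From day 6 on it was 37744 to 42693 in 3 KO libraries, the second of day 6 and both of day 8, and 23706 in the unnumbered one of day 14, against 2958 to 6712 in the other KO libraries. The sum of the other 7 markers, not taken relative to the median gene, was 8854 to 18385 RPKM in late KO libraries and 13034 to 15677 in WT. Without day 8 and the second KO library of day 6, a choice made after the values were seen, the 6 members called in the middle window were called again and Slc1a2 joined them. Without the unnumbered library of day 14, 6 members were called in the late window. With all libraries, 53.9% of all genes were called in the middle and 49.6% in the late window. The shares in the fits without these libraries are not given here, so the counts are not read as particular to the members.

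Among the 9 genes, levels per exon length fell into 3 tiers in WT livers on day 0. Oat stood at 234.6 and 300.7 RPKM and Glul at 255.8 and 221.5, ranges that overlap. Lect2 followed at 73.6 and 71.1, and Slc1a2 at 39.4 and 48.5. The others were all under 5 RPKM, with Rhbg at 3.24 and 4.13, Tbx3 at 3.88 and 2.56, Rnf43 at 2.28 and 2.02, Lgr5 at 1.17 and 1.73, and Axin2 at 1.13 and 0.907. Rhbg and Tbx3 overlapped each other. No member was listed at 0 in any library. In the mm9 annotation, 8 of the 9 genes overlap another annotated gene, 7 of them one on the opposite strand, and whether the counting used strand is not given in the sources used here.

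**Figure D1:**
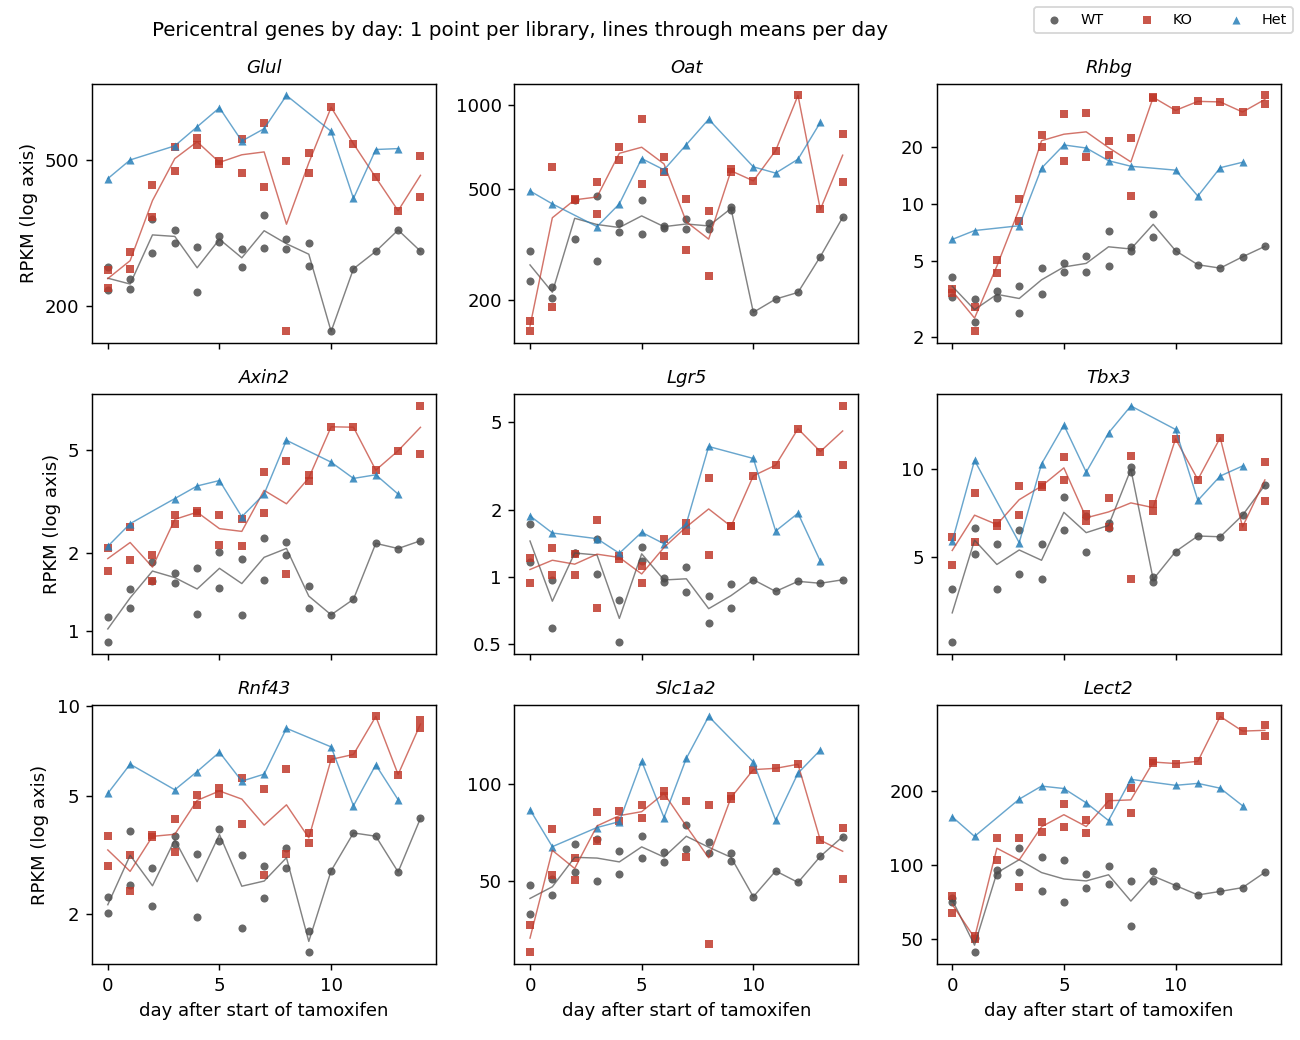
RPKM (log axis) of each gene against the day after the start of tamoxifen, 1 point per library, with lines through the means per day for WT (circles), KO (squares) and Het (triangles). KO and WT start together on day 0 for Rhbg and Lect2 and are apart in the late window, when Rhbg is 30.4 to 37.1 RPKM in KO and 4.59 to 5.97 in WT.

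On day 0 limma called none of the 9 genes between KO and WT, where 0.0655% of all genes were called. Oat was 0.81 ± 0.32 lower in KO (adjusted p = 0.49). Axin2 was 0.81 ± 0.25 higher (adjusted p = 0.32), from 2.10 and 1.71 RPKM in KO against 1.13 and 0.907 in WT. Of the 9, 4 had an unadjusted p under 0.05, against 6.96% of all genes, with 2 higher and 2 lower: Oat, Axin2, Tbx3 and Slc1a2. On days 1 to 2 none was called, against 10.9% of all genes, and 0 had an unadjusted p under 0.05, against 29.7% of all genes. The differences then lay between -0.07 (Slc1a2) and 0.26 (Oat), and Oat was called, at 0.62, without the first KO library of day 1.

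In the early window 4 of the 9 genes rose in KO and none fell. Of all genes, 26.5% rose and 9.61% fell, 36.1% in either direction. The risers were Rhbg, Glul, Axin2 and Tbx3, which cover a transporter, an enzyme and a pair of pathway targets. In the middle window 6 of the 9 rose, against 35.1% of all genes that rose and 18.8% that fell (53.9% in either direction). Tbx3 was no longer called there, and Lgr5, Rnf43 and Lect2 were. In the late window 6 of the 9 rose, namely Rhbg, Lect2, Lgr5, Axin2, Oat and Rnf43, against 38.6% of all genes that rose and 11.1% that fell (49.6% in either direction). Where the spread between days entered the error, as with 1 mean per genotype and window, 4 of the 9 were called late, Rhbg, Lect2, Lgr5 and Axin2. Oat (0.58, adjusted p = 0.051) and Rnf43 (0.35, adjusted p = 0.12) were then lost, as was Tbx3 in the early window (adjusted p = 0.17). The share of all genes called late in that fit is not given here. The same 4 were called with each day as a block over the late libraries alone, a fit chosen after the values were seen, where Axin2 lay close to the threshold (0.85 ± 0.32, adjusted p = 0.046). The median difference of the 9 genes was 0.36, 0.64 and 0.62 in these windows, beside 0.04, 0.06 and 0.08 over all tested genes. Every member was tested in every window and none was called lower in any of them. In the deposited sample names, libraries carry a mark, B_1 or B_2, whose meaning is not given in the sources used here, and all late libraries and all of Het are marked B_1. Within the libraries marked B_1 and B_2, Rhbg was higher by 1.86 and 1.74 in the early and by 1.78 and 1.74 in the middle window, and was called in each. Lect2 was higher by 0.88 and 1.07 in the middle window, also called in each. Axin2, Lgr5 and Rnf43 were called in the middle window within B_2 alone (0.82, 0.81 and 0.65), and were higher by 0.52, 0.68 and 0.63 within B_1. Glul was higher by 0.60 and 0.52 in the early and by 0.64 and 0.32 in the middle window and was not called within either mark. Nor were Axin2 (0.56 and 0.39) and Tbx3 (0.54 and 0.18) in the early window, so that Rhbg was the 1 early riser called within each mark. These fits hold fewer libraries.

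**Figure D2:**
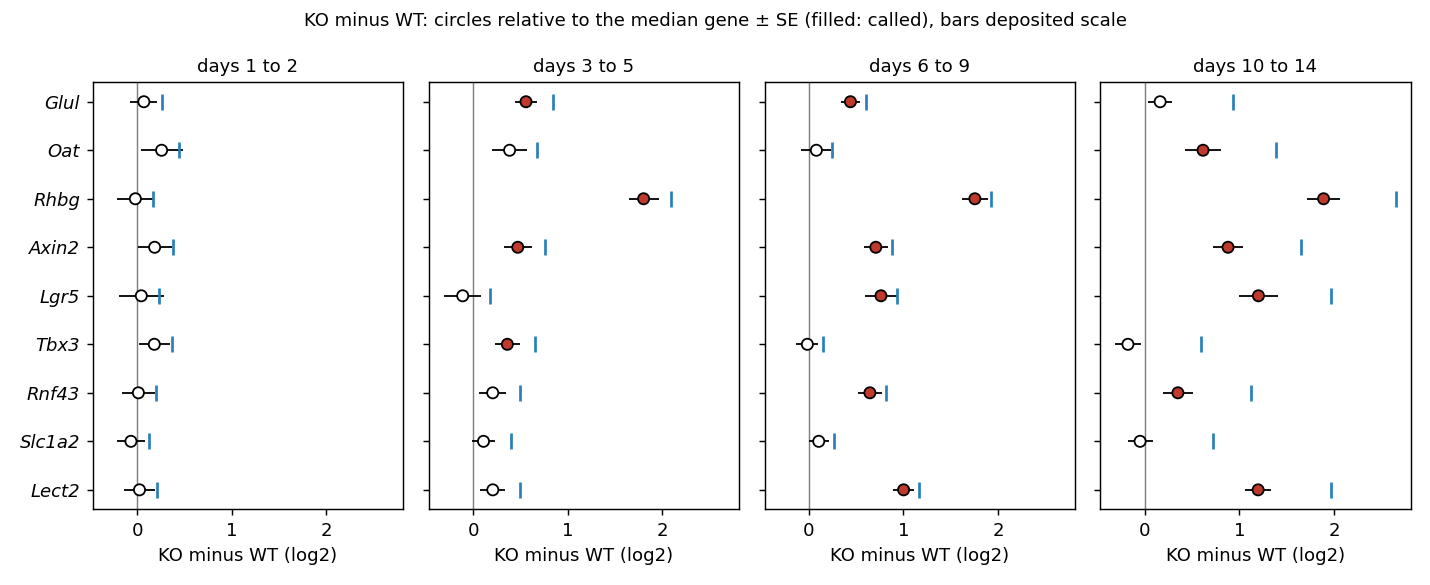
KO minus WT difference (log2) of each gene in 4 windows of days; circles are relative to the median gene with standard errors and are filled where the gene was called, and vertical bars give the same difference on the deposited scale. Rhbg lies farthest right from the early window on, at 1.80, 1.75 and 1.89, and in the late window the bars of Tbx3 and Slc1a2 are right of 0 while their circles are left of it.

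Rhbg encodes an ammonium transporter of the Rh family, which in the liver sits on the membrane of pericentral hepatocytes. Its early level in KO was 8.11 and 10.6 RPKM on day 3, 19.9 and 23.0 on day 4 and 29.7 and 16.7 on day 5. In WT the 6 early libraries ran from 2.66 to 4.91 with a median of 4.05. The groups did not overlap, and Rhbg rose by 1.80 ± 0.16 (adjusted p = 1.5e-09). In the middle window KO libraries spanned 11.0 to 36.6 RPKM (median 21.8) and WT libraries 4.40 to 8.88 (median 5.78), a rise of 1.75 ± 0.14. Late KO libraries held 31.0, 34.6, 34.3 and 30.4 RPKM on days 10 to 13, and 33.6 and 37.1 on day 14. WT held 5.67, 4.78, 4.59, 5.26 and 5.97 RPKM on the same days, so KO was above WT on every day, by 1.89 ± 0.17 (adjusted p = 3.9e-10). From the early to the late window the difference changed by 0.09 ± 0.23, which was not called (adjusted p = 0.78).

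Glul encodes glutamine synthetase, which joins ammonium to glutamate in the ring of hepatocytes around the central vein. Early KO libraries held 466.8 and 541.2 RPKM on day 3, 547.5 and 572.7 on day 4, and 488.1 and 496.6 on day 5. The WT libraries ran from 219.1 to 323.2 (median 297.8), all below the KO ones, and the rise was 0.56 ± 0.12 (adjusted p = 2.9e-04). In the middle window KO ran from 171.4 to 628.0 RPKM (median 479.5) and WT from 255.5 to 354.4 (median 287.6), a rise of 0.44 ± 0.10. The lowest KO library there, the second of day 8, lay below all of WT, and with day 8 left out of both genotypes, a choice made after the values were seen, the rise was 0.67 ± 0.09. Late KO libraries stood at 694.7, 553.0, 448.1 and 363.9 RPKM on days 10 to 13 and 397.0 and 511.2 on day 14, and WT at 171.1, 253.1, 282.2, 322.5 and 282.6. Every KO library was still above every WT library in RPKM, but relative to the median gene the difference was 0.16 ± 0.12 (adjusted p = 0.25), against 0.93 ± 0.17 on the deposited scale. Without the KO library of day 13 it was 0.38 and was called (adjusted p = 0.013).

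Oat encodes ornithine aminotransferase, a mitochondrial enzyme that turns ornithine toward glutamate. It ran from 407.6 to 888.0 RPKM in early KO libraries (median 581.6) and from 275.8 to 470.5 in WT (median 364.2). The difference of 0.39 ± 0.18 was not called (adjusted p = 0.0795), but it was without the second WT library of day 3 or the second library of either genotype of day 5. The middle difference was 0.08 ± 0.16. Late KO libraries held 534.3, 685.8, 1079 and 422.3 RPKM on days 10 to 13 and 531.2 and 788.8 on day 14, against 181.2, 202.1, 213.5, 286.6 and 395.8 in WT. All KO libraries exceeded all WT libraries, and Oat rose by 0.62 ± 0.19 (adjusted p = 0.0068). That call was lost without the day 10 WT library (adjusted p = 0.056) or the day 12 KO library (adjusted p = 0.10), and also within the libraries marked B_1, which include all late ones (0.58 ± 0.29, adjusted p = 0.088).

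Slc1a2 encodes the glutamate transporter GLT-1, which brings glutamate into pericentral hepatocytes. It was not called in any KO minus WT window, with differences of -0.51 ± 0.21 on day 0 and of 0.11 ± 0.12 (early), 0.10 ± 0.11 (middle) and -0.05 ± 0.13 (late). From day 10 to day 12 KO held 111.1, 112.1 and 115.5 RPKM against 44.5, 53.6 and 49.3 in WT. On days 13 and 14 KO held 66.8, 50.5 and 73.0 RPKM against 59.5 and 68.6 in WT, so the groups overlapped there. With day 8 left out, a choice made after the values were seen, it was called in the middle window, at 0.31 ± 0.11 (adjusted p = 0.017). On the deposited scale the late difference was 0.72 ± 0.17 (adjusted p = 4.2e-04), opposite in sign to that relative to the median gene.

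Axin2, Rnf43 and Lgr5 are targets of the pathway that also act on it: AXIN2 is a scaffold of the complex that degrades beta-catenin, RNF43 is a ubiquitin ligase that clears Frizzled receptors, and LGR5 is a receptor for R-spondins. Of these, Axin2 was called in the early window, when it was 2.60 and 2.80 RPKM in KO on day 3, 2.90 and 2.86 on day 4 and 2.82 and 2.16 on day 5, all above the 1.16 to 2.03 of WT (median 1.61), and the rise was 0.47 ± 0.15 (adjusted p = 0.0094). It rose by 0.71 ± 0.13 in the middle window, when KO ran from 1.67 to 4.54 RPKM and WT from 1.15 to 2.28. Late KO libraries held 6.16, 6.14, 4.19 and 4.98 RPKM on days 10 to 13 and 4.85 and 7.42 on day 14, and WT held 1.15, 1.33, 2.18, 2.08 and 2.23. The rise was 0.88 ± 0.16 (adjusted p = 2.2e-05), with differences by day of 2.13 and 1.62 on days 10 and 11 and of -0.15 on day 13. Axin2 was already 0.81 higher in KO on day 0 (not called). From day 0 to the late window it changed by 0.09 in KO and by 0.02 in WT, relative to the median gene.

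Lgr5 was not called in the early window (-0.11 ± 0.19, adjusted p = 0.66), when KO ran from 0.726 to 1.80 RPKM and WT from 0.509 to 1.48. In the middle window it ran from 1.24 to 2.78 RPKM in KO and from 0.617 to 1.11 in WT, without overlap, a rise of 0.76 ± 0.17 (adjusted p = 3.3e-04). Late KO libraries held 2.85, 3.18, 4.64 and 3.67 RPKM on days 10 to 13 and 3.19 and 5.88 on day 14, while WT held 0.970, 0.859, 0.954, 0.935 and 0.969. The rise was 1.20 ± 0.21 (adjusted p = 1.4e-05). The change of the difference from the early to the late window was itself called, at 1.31 ± 0.28 (adjusted p = 3.9e-04). Between these windows its mean level relative to the median gene went from -2.43 to -1.46 in KO and from -2.32 to -2.66 in WT. Counted from day 0 to the late window, Lgr5 changed by 0.35 in KO and by -1.36 in WT on that scale, and neither change was called.

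Rnf43 rose by 0.64 ± 0.13 in the middle window (adjusted p = 8.0e-05), from 2.71 to 6.15 RPKM in KO against 1.49 to 3.34 in WT, ranges that overlap. In late KO libraries it was 6.63, 6.89, 9.25 and 5.90 RPKM on days 10 to 13 and 8.43 and 9.02 on day 14, all above the 2.80, 3.75, 3.66, 2.77 and 4.20 of WT. The rise of 0.35 ± 0.15 lay close to the threshold (adjusted p = 0.046) and was lost without any 1 of 7 libraries, the WT ones of days 10, 12 and 13, the KO ones of days 10, 11 and 12 and the numbered KO one of day 14 (adjusted p 0.051 to 0.24). On day 0 Rnf43 was already 0.51 higher in KO (not called). From day 0 to the late window it changed by -0.25 in KO and by -0.095 in WT, relative to the median gene.

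Tbx3 encodes a T-box transcriptional repressor downstream of beta-catenin in the liver. It was 8.74 and 6.99 RPKM in KO on day 3, 8.82 and 8.68 on day 4 and 11.0 and 9.17 on day 5, against 4.22 to 8.02 in WT (median 5.86). The ranges overlapped through 1 WT library of day 5, and Tbx3 rose by 0.36 ± 0.13 (adjusted p = 0.025), a call lost without any 1 of 6 libraries, 1 of each genotype on days 3, 4 and 5 (adjusted p 0.058 to 0.10). On day 0 Tbx3 was already 0.63 higher in KO (not called). The middle difference was -0.02 ± 0.12. In the late window KO held 12.7, 9.21, 12.8 and 6.35 RPKM on days 10 to 13 and 7.79 and 10.6 on day 14, and WT 5.22, 5.91, 5.87, 6.96 and 8.81, a difference of -0.18 ± 0.14 relative to the median gene and 0.59 ± 0.19 on the deposited scale.

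Lect2 encodes a hepatokine, a protein secreted by hepatocytes, and is used as a readout of beta-catenin in the liver. Its early difference was 0.21 ± 0.13 (adjusted p = 0.19), and it was called, at 0.33, without the second WT library of day 5. In the middle window KO ran from 135.4 to 265.1 RPKM (median 183.0) and WT from 56.8 to 99.0 (median 86.3), without overlap, a rise of 1.00 ± 0.11 (adjusted p = 3.1e-08). Late KO libraries held 259.3, 264.7, 402.8 and 351.3 RPKM on days 10 to 13 and 372.8 and 334.8 on day 14, and WT held 82.8, 75.8, 78.3, 81.2 and 93.7. The rise was 1.20 ± 0.14 (adjusted p = 3.5e-08), and its change since the early window was 0.99 ± 0.19 (adjusted p = 1.1e-04). Lgr5 and Lect2 were thus the members whose difference grew between these windows, 2 of 9 against 28.1% of all genes that grew and 38.8% that changed in either direction. Axin2 joined them without the KO library of day 13 (0.55, adjusted p = 0.041). For this change 4 of the 9 had an unadjusted p under 0.05, against 60.4% of all genes, with 2 higher and 2 lower. The lower ones, Glul (-0.40) and Tbx3 (-0.54 ± 0.19), were not called, though Tbx3 passed relative to the median gene alone (adjusted p = 0.021).

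Day by day, relative to the median gene, the 9 genes did not move as 1 block within the late window. On day 10 all 9 were higher in KO, by 0.96 (Rnf43) to 2.16 (Rhbg), and on day 12 all 9 by 0.15 (Glul) to 2.39 (Rhbg). On day 13, with 1 library per genotype, Glul was -1.23, Oat -0.85, Tbx3 -1.54 and Slc1a2 -1.24, while Rhbg was 1.12, Lect2 0.71 and Lgr5 0.56. On day 14 Tbx3 was -1.01 and Slc1a2 -1.23, Glul was -0.38, and Rhbg, Lgr5 and Lect2 were 1.51, 1.11 and 0.86. The median gene itself stood at 3.77 (log2 RPKM) in the KO library of day 13 and at 3.39 and 3.78 in those of day 14. It stood at 3.08 to 3.13 in KO on days 10 to 12 and at 2.37 to 2.79 in late WT libraries. In RPKM, every late KO library was above every late WT library for Glul and Oat. With days 10 to 12 alone as the late window, a choice made after the daily values were seen, all 9 genes were called higher, Glul by 0.81, Tbx3 by 0.55 and Slc1a2 by 0.74. With all late days, 38.6% of all genes rose. The share for days 10 to 12 alone is not given here, so the count is not read as particular to the 9. Duct cell markers summed to 739.8 RPKM in the KO library of day 13 and to 243.4 and 934.6 in those of day 14, against 110.0, 133.1 and 279.4 on days 10 to 12 and 38.3 to 53.6 in late WT libraries. The part of these cells in the values was not tested.

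**Figure D3:**
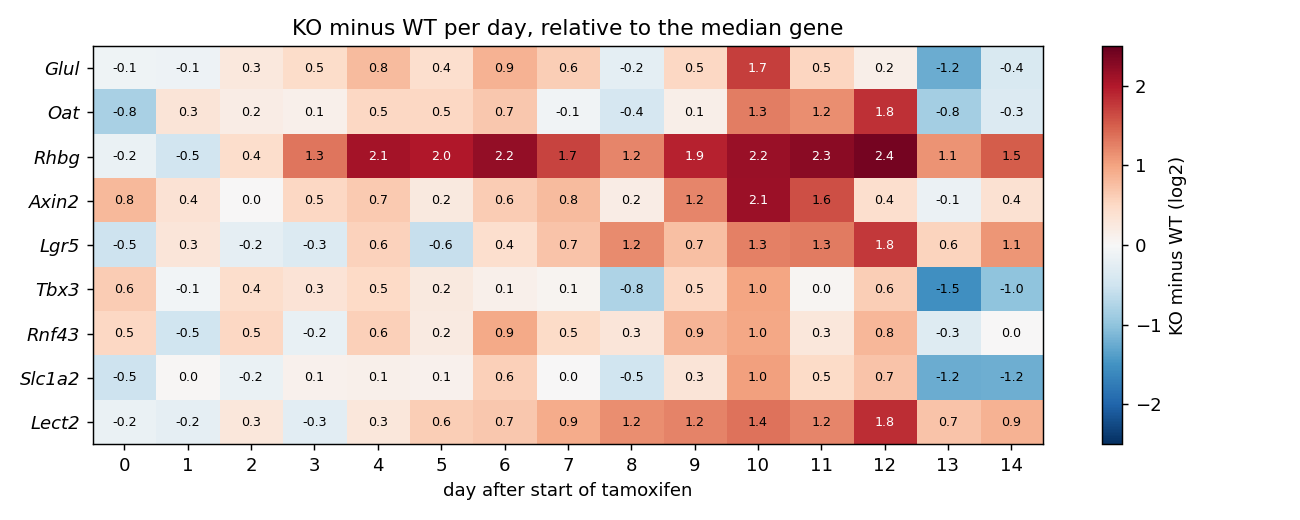
KO minus WT difference (log2, relative to the median gene) per gene and day, coloured and printed in each cell, from 2 libraries per genotype on days 0 to 9 and 1 on most later days. Rhbg is above 1 from day 3 on, and the columns of days 13 and 14 hold values below -1 for Tbx3 and Slc1a2.

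Within KO, from day 0 to the late window, Rhbg rose by 1.82 ± 0.23 (adjusted p = 1.5e-07) and Lect2 by 0.79 ± 0.19 (adjusted p = 6.0e-04), 2 of 9 against 35.6% of all genes that rose and 40.5% called in either direction. Without the KO library of day 13, Oat was called too (0.82). Within KO, 5 of the 9 had an unadjusted p under 0.05, against 71.4% of all genes, with 3 higher and 2 lower. The lower ones, Glul (-0.38 ± 0.17) and Tbx3 (-0.54 ± 0.19), passed relative to the median gene alone. On the deposited scale their changes were 1.04 and 0.89. The share of all genes that passed downward in KO relative to the median gene is not given here. In WT none was called over the same days, where 16.9% of all genes were. Of the 9, 5 had an unadjusted p under 0.05 in WT, against 43.5% of all genes, all 5 lower relative to the median gene. Those of Glul (-0.64 ± 0.17), Oat (-0.87 ± 0.26), Lgr5 (-1.36 ± 0.28) and Lect2 (-0.57 ± 0.19) passed on that scale alone, where 18.0% of all genes passed downward. Over all tested genes, the median change in WT between the same days was 0.70 on the deposited scale, and there the 4 changes lay between -0.60 and 0.18.

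In Het females the levels on days 0 and 1 are set beside those of WT males of day 0. Glul was 444.8 and 499.9 RPKM in Het against 255.8 and 221.5 in WT, Lect2 157.5 and 131.1 against 73.6 and 71.1, Rnf43 5.10 and 6.39 against 2.28 and 2.02, and Rhbg 6.49 and 7.23 against 3.24 and 4.13. Relative to the median gene, 8 of the 9 means were higher in Het and 1, Lgr5, was lower (-1.52 against -1.30). On that scale the means of Glul were 6.58 against 6.09, of Lect2 4.87 against 4.37, of Rnf43 0.21 against -0.70 and of Rhbg 0.48 against 0.06. Lgr5 was 1.58 and 1.88 RPKM in Het, overlapping the 1.17 and 1.73 of WT on day 0. Relative to the median gene, WT libraries of days 1 to 2 held Lgr5 at -2.38 to -1.89, below the -1.68 and -1.35 of Het. Its direction thus depends on the WT days used. Sex and genotype cannot be told apart in these values, and they were not tested. Rhbg in Het was 7.67 RPKM on day 3, 15.4 on day 4 and 20.4 on day 5, then 15.8 to 19.6 on days 6 to 8 and 11.0 to 16.5 on days 10 to 13. Its change from days 0 and 1 to days 10 to 13 was 0.41 ± 0.28 relative to the median gene (adjusted p = 0.30) and 1.06 ± 0.30 on the deposited scale (adjusted p = 0.0098), so it was not called.

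None of the 9 genes was called over time in Het by limma, against 14.0% of all genes, and 2 had an unadjusted p under 0.05, against 38.1% of all genes. These were Glul (-0.54 ± 0.16) and Rnf43 (-0.66 ± 0.16), both lower relative to the median gene. The difference between the change in Het and that in WT was not called for any of the 9, where 0.186% of all genes were called. It was above 0 for 8 of the 9, with a median of 0.38 beside -0.02 over all genes. Of the 9, 1 had an unadjusted p under 0.05, Oat (0.75 ± 0.34, adjusted p = 0.65), against 7.12% of all genes, and the start of the Het change rests on 2 libraries. For Rhbg the difference of the changes was 0.51 ± 0.33 (adjusted p = 0.84). Lgr5 in Het stood out on days 8 and 10, at 3.86 and 3.41 RPKM, while the other 10 libraries ran from 1.18 to 1.93.

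The promoters of Glul, Axin2, Slc1a2 and Lect2 are shown because Glul and Axin2 rose in the early and middle windows and the other pair holds the TCF/LEF core letters. RefSeq's table for GRCm38.p6 held promoters of 6 of the 9 genes, from 250 bases before to 50 after the start. They were searched on both strands for CTTTGA, which stands for the TCF/LEF site, for its extension by T (CTTTGAT) or by A (CTTTGAA), both of which overlap it, and for ACTACA, the start of the THAP11 motif. Matches of CTTTGA on either strand are in capitals below, where a match on the other strand reads TCAAAG.
Glul (chr1:153899679-153899978, plus strand): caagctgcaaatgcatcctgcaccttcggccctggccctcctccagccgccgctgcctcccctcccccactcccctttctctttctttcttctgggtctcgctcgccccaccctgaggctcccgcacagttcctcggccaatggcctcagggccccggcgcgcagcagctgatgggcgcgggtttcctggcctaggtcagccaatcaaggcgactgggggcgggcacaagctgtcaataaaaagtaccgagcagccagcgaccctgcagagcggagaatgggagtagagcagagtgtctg
Axin2 (chr11:108920099-108920398, plus strand): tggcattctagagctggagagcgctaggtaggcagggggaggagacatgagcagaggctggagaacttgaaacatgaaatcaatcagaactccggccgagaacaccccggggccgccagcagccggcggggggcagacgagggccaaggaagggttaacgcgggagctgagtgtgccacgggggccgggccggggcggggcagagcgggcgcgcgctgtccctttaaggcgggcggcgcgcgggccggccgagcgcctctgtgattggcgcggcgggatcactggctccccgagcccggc
Slc1a2 (chr2:102706188-102706487, plus strand): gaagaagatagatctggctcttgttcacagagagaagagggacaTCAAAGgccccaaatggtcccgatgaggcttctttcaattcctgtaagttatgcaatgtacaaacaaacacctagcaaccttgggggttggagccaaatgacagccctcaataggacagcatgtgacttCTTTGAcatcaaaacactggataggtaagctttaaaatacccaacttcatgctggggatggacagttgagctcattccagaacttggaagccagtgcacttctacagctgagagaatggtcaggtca
Lect2 (chr13:56548489-56548788, minus strand): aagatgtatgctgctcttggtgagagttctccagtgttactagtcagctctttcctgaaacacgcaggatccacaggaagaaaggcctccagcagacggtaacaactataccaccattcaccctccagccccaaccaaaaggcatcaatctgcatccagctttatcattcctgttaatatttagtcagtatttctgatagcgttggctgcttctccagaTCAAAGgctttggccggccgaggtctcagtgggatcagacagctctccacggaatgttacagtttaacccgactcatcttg

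Slc1a2 held CTTTGA at 2 places, and Lect2 at 1 place, 31 bases before its start, and in each gene 1 match was also a CTTTGAT. Over the 32851 promoters of the table, 16% held CTTTGA and 3.73% the extension with T. The extension with A, held by 5.14% of all promoters, was in none of the members' windows, and ACTACA, held by 10.3%, was in 1 promoter of Rnf43. The windows of Glul, Axin2 and Oat held none of these letters. Of the promoters with CTTTGAT, Lect2 belongs to a gene that rose in the late window and Slc1a2 to a gene that was not called.

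The other genes of the pathway moved in both directions. Among the ligands and their secretion, 5 of 7 tested genes rose and 2 fell in the late window, where 38.6% of all genes rose and 11.1% fell. Wls, which escorts WNT proteins to the cell surface, was 10.4 ± 4.98 RPKM (SD, n = 6) in KO against 2.94 ± 0.98 (n = 5) in WT and rose by 0.90 ± 0.11 (adjusted p = 4.8e-08). Rspo3, the R-spondin of central vein endothelium, was 6.58 ± 2.03 RPKM against 2.34 ± 0.30 and rose by 0.62 ± 0.11 (adjusted p = 1.3e-05). Porcn, the acyltransferase that WNT proteins need to become active, fell by 1.69, 2.93 and 3.24 in the early, middle and late windows. Its middle level was 0.285 ± 0.080 RPKM (n = 8) in KO against 1.88 ± 0.27 (n = 8) in WT. Wnt5b, a ligand that can act without beta-catenin, fell by 1.31 ± 0.13 in the middle and by 1.61 ± 0.15 in the late window. Endothelial markers, a list that shares Wnt2, Wnt9b and Rspo3 with the ligands, summed to 181.3 to 321.6 RPKM in late KO libraries against 77.4 to 171.0 in WT. Of these markers, 7 of 11 rose. Stellate cell markers summed to 266.6 to 661.8 RPKM in late KO libraries against 116.2 to 165.9 in WT. The part of these cells in the ligands' values was not tested.

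Among receptors and their turnover, 3 of 11 tested genes rose and 1 fell in the late window, where 38.6% of all genes rose and 11.1% fell. The risers were Fzd5, a Frizzled receptor (0.54 ± 0.13), Lrp5, a co-receptor (0.58 ± 0.13), and Znrf3, the partner ligase of RNF43 (0.73 ± 0.15). Lgr4, the R-spondin receptor that most hepatocytes hold, fell by 1.06 ± 0.09 relative to the median gene (adjusted p = 2.6e-10), while Lgr5 rose. In RPKM, where the median difference over all tested genes was 0.85 (log2), Lgr4 was 16.3 ± 2.2 in WT and 13.1 ± 2.3 in KO. The call of Lgr4 was lost without the WT library of day 10 or the KO library of day 13, since it then missed the threshold on the deposited scale. Of the components inside the cell, 7 of 18 rose late, a share close to the 38.6% of all genes, and none fell. Ctnnb1, which encodes beta-catenin, rose from days 1 to 2 on, by 0.28 ± 0.06, 0.41 ± 0.05, 0.50 ± 0.04 and 0.51 ± 0.05 in the 4 windows, and was 168.2 RPKM on average in KO against 65.8 in WT in the late window. Tcf7, a TCF factor and a target of the pathway, rose by 0.82 ± 0.13 in the middle and 0.80 ± 0.16 in the late window, and Gsk3b, a kinase of the beta-catenin degradation complex, rose by 0.47 ± 0.06 and 0.53 ± 0.07.

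Of the other WNT target genes, 6 of 7 rose in the middle and 6 of 7 in the late window, against 35.1% and 38.6% of all genes. Znrf3, Tcf7 and Notum of this list also belong to the lists of receptors, components and secreted inhibitors. Ccnd1, which encodes cyclin D1, rose from days 1 to 2 on and by 1.59 ± 0.17 in the late window, Myc by 3.15 ± 0.33, and Nkd1, an inhibitor of Dishevelled, by 0.87 ± 0.14. Notum, an enzyme that removes the lipid from WNT proteins, changed sign: it rose by 0.65 ± 0.14 on days 1 to 2 and 0.52 ± 0.12 in the early window, and fell by 1.21 ± 0.13 in the late one. Without the KO library of day 13 the late difference was -0.83 and was no longer called on both scales, and with days 10 to 12 alone it was -0.24 ± 0.17. Macrophage markers summed to 424.2 to 935.8 RPKM in middle and 737.1 to 1684 in late KO libraries, against 319.5 to 699.2 and 179.9 to 606.4 in WT, and 2 and 5 of the 8 rose. All 8 stellate cell markers and 4 of 6 tested duct cell markers rose late. The part of these cells in the levels of the target genes was not tested. Among the secreted inhibitors, Dkk3 rose by 1.86 ± 0.23 and Frzb, which binds WNT proteins, by 1.36 ± 0.24 in the late window.

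Other pericentral hepatocyte genes, which include cytochromes P450 that also depend on nuclear receptors, did not share the direction of the 9. Of 20, 8 rose and 6 fell in the middle window, with a median of -0.11, and 7 rose and 8 fell in the late window, with a median of -0.65. Of all genes, 35.1% rose and 18.8% fell in the middle window, and 38.6% rose and 11.1% fell in the late one. Slc1a4, a neutral amino acid transporter, rose by 3.67 ± 0.15 and Cyp2a5, a coumarin hydroxylase, by 4.72 ± 0.28 in the late window. Cyp2c54, another P450, fell by 3.19 ± 0.16 and Rgn, the calcium-binding regucalcin, by 2.76 ± 0.13. Of 20 periportal genes, 5 rose and 13 fell late, with a median of -1.52. Sds, serine dehydratase, fell by 4.38 ± 0.29, Hal, histidine ammonia-lyase, by 4.21 ± 0.24 and Uroc1, urocanate hydratase, by 1.99 ± 0.10. In the early window 7 of the periportal genes rose and 5 fell, against 26.5% and 9.61% of all genes. Hsd17b6, a steroid dehydrogenase, then rose by 3.65 ± 0.44 while Arg1, arginase of the urea cycle, fell by 1.07 ± 0.14.

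**Figure D4:**
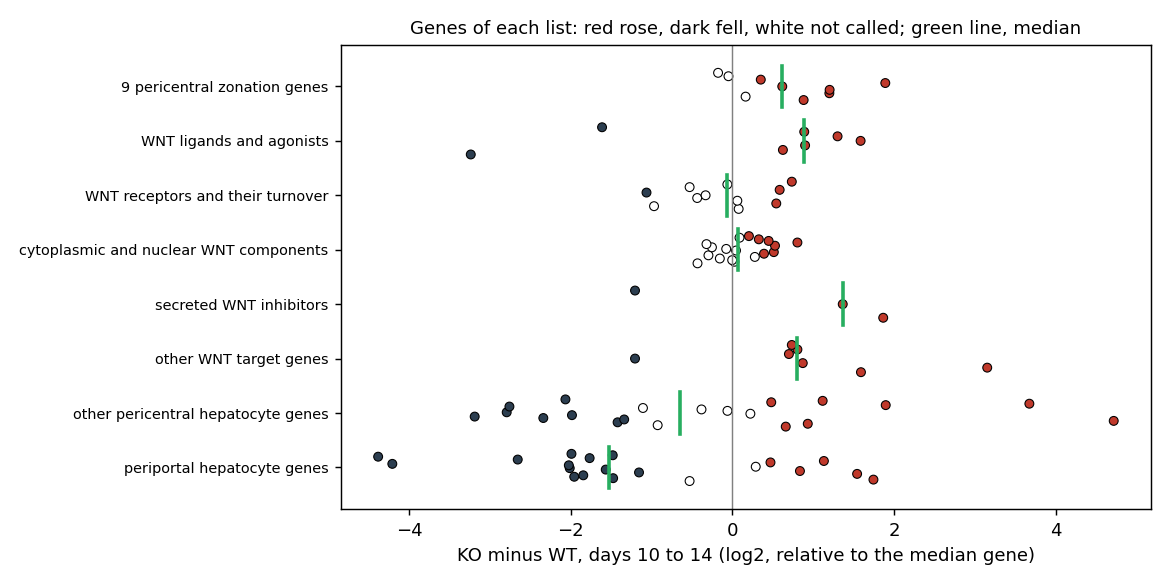
KO minus WT difference on days 10 to 14 (log2, relative to the median gene), 1 point per tested gene in 8 lists, red where it rose, dark where it fell and white where it was not called, with the median of each list as a green line. The median of the 9 genes is 0.62, that of the other pericentral genes -0.65 and that of the periportal genes -1.52.

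The genes whose daily KO minus WT difference was nearest to that of Glul over the 15 days were Cyp3a11, Cyp2d11, Cyp2d10, Rarres1 and Shpk, with root mean square differences of 0.28, 0.30, 0.31, 0.33 and 0.34 (log2), where the median over all genes was 0.90. Among the other 8 genes, Slc1a2 (0.46) and Tbx3 (0.47) came nearest to Glul and Rhbg was farthest (1.40). Nearest to Axin2 were Tcf7, Kcp, Islr, Col15a1 and Tbcel, at 0.34, 0.35, 0.40, 0.41 and 0.43, where the median was 0.99, and Glul (0.58) was the nearest of the other 8. These likenesses are descriptions over days that share libraries.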

How the data were processed

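Poly(A) RNA of mouse livers was sequenced as stranded single-end reads of 50 nucleotides, per the labels' protocols. The submitters' processing notes name the mm9 genome, TopHat2 2.0.13, Bowtie 1.1.2 and edgeR, whose version is not given in the sources used here. The authors deposited log2 values of RPKM plus a constant of 8.9e-05 for 15616 genes in 63 libraries. Raw counts were not analysed here. The depth was estimated from the spacing of low values, of which 40.2% to 52.1% per library lay within 0.05 of a whole read, where an even spread gives 10.0%.

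From these values, each library was centred on its median and tested with limma 3.58.1 in R 4.3.3, with 1 mean per genotype and day in males and 1 per window of days in Het, on genes that reached a log2 value of 0 in 4 or more libraries (2 in Het). That left 12221 genes in males, 11919 in Het and 12380 over all. P-values were adjusted by Benjamini-Hochberg over all genes tested, and a call needed adjusted p under 0.05 with the same sign on centred and deposited values. Where the median gene is higher, a fall is harder to call under this rule than a rise. One KO column of day 14 had no replicate number and was used as a replicate of its group. Sequences came from RefSeq (GRCm38.p6), gene overlaps from GENCODE on mm9. Named genes were the 9 members, up to 4 genes with the smallest p of each list and window, and the 5 genes nearest to Glul and Axin2; Wnt5b, Lgr4, Notum and others came from those lists, and no gene was left out for its values. The members and all lists were chosen with earlier results of these data known. Alternatives were the deposited scale, centred values alone, quantile normalization, other filters, 0.1 RPKM added before the logarithm, 1 mean per window, fewer libraries in the fit, the marks B_1 and B_2, the replicate block and each library left out, and, added after the data were seen, day as a block in the late window, days 10 to 12 alone, and the middle window without day 8 or also without the second KO library of day 6.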

Additional observations from a re-analysis of the deposited data

Results flagged for a closer look

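Values here are log2 levels relative to the library's median gene. In 81 groups of 4 to 10 libraries that were examined for a library standing apart by Dixon's criterion, 9 were found, where chance gives about 1 in 20. Of these, 3 were the second KO library of day 8, in Glul (4.97, the next library at 5.91), Tbx3 (-0.37, next 0.11) and Slc1a2 (2.54, next 3.34), each time the lowest of 8. Alb was 37954 RPKM in that library, and about as high in the first KO library of day 8 (42693) and the second of day 6 (37744), against 4744 to 6712 in the other 5 KO libraries of days 6 to 9. The criterion was applied to the lowest and the highest library of a group alone, so neither of these 2 could be found low in the 3 genes.

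The other 6 were scattered over genes and days. Glul stood high in the first WT library of day 9 (5.97) and Tbx3 in the first KO library of day 1 (1.06). Axin2 stood low in the first WT library of day 2 (-1.66), Lgr5 in the second WT libraries of day 1 (-2.38) and day 8 (-3.22), and Rnf43 in the first WT library of day 4 (-1.27).

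Lgr5 and Lect2 were found because their KO minus WT difference was larger in the late window (days 10 to 14) than in the early one (days 3 to 5), by 1.31 and 0.99, and limma called that change in each.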

How the results depend on the processing

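On the deposited scale alone the called members numbered 8 in the early window (days 3 to 5), 5 for the change from the early to the late window, 9 within KO, 3 within WT and 3 in Het. In the late window every member passed on that scale, where Glul (0.93), Tbx3 (0.59) and Slc1a2 (0.72) joined. All genes called then numbered 2253 on days 1 to 2, 6971 early, 10122 late, 7449 for that change, 10832 within KO, 9564 within WT and 8437 in Het. The sign of the difference turned on that scale for Tbx3 (0.59) and Slc1a2 (0.72) late, for Glul (1.04), Tbx3 (0.89) and Rnf43 (1.17) within KO, for Rnf43 within WT (0.66) and for Lect2 in Het (0.49), because the median gene is higher there. Centred values alone gave 4 members within KO, 4 within WT and 2 in Het, with 8432, 4156 and 2622 genes, and 38 genes for the Het change against the WT change. Quantile normalization gave 4, 1 and 1 members, with 8387 genes within KO, and 7200 genes for the change between windows. Glul was called in the late window with it, at 0.40 ± 0.17 (limma, adjusted p = 0.034). The stricter filter left 1 member called for the change between windows, because it removed Lgr5 before testing, and 5 genes on day 0. No filter gave 21 genes on day 0 and 0.1 RPKM added gave 5. One mean per window gave 2 genes on day 0, 464 on days 1 to 2 and 10 for the Het change against the WT change. The libraries of the days compared alone gave 0 genes on day 0, 1077 in Het and 1307 within WT. Limma called 8 genes on day 0 with all libraries, and 850 had an unadjusted p under 0.05.

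Libraries marked B_1 alone left 1 member early and 2 in the middle window, with 15, 8, 1567 and 2077 genes from day 0 to the middle window, 3104 for the change between windows and 331 within WT. Libraries marked B_2 alone left 1 member early, with 17, 522 and 2413 genes up to the early window. These fits hold fewer libraries, and in the late window B_1 alone left 4 members, without Oat and Rnf43.

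With days 10 to 12 alone as the late window, a choice made after the data were seen, members called for the change between windows numbered 5 and within KO 4. The shares of all genes called in these fits are not given here. Tbx3 (0.55) and Slc1a2 (0.74 late, 0.63 for the change) turned sign, and the cause was not tested.

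Leaving out each library in turn gave 0 to 1 members called on days 1 to 2, 3 to 5 early, 6 in the middle window, 4 to 7 late, 2 to 3 for the change between windows, 2 to 3 within KO and 0 in the other comparisons. Genes called ran from 4 to 40 on day 0, 737 to 1230 on days 1 to 2, 3945 to 4377 early, 6173 to 6791 in the middle window, 5831 to 6109 late, 4422 to 4923 for the change, 4172 to 5021 within KO, 1173 to 2112 within WT, 956 to 1712 in Het and 14 to 60 for the Het change against the WT change.

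The replicate numbers are shared by KO and WT, but same-numbered libraries deviated together only weakly, with correlations of -0.06 to 0.29 over the 10 days with pairs, so they were not taken as pairs. With the replicate block, members called were 4 early, 6 in the middle window, 2 for the change between windows and 3 within KO, where Oat joined (0.64 ± 0.26, adjusted p = 0.030), and genes called were 8, 1419, 4539 and 6762 from day 0 to the middle window. The late window has no pairs of replicate numbers, and there day was used as a block on 11 libraries with 5 residual degrees of freedom, a choice made after the data were seen. It gave 4 members and 5213 genes, and the calls of Oat and Rnf43 were lost, as they were with 1 mean per window. No paired analysis was possible for Het because each of its days holds 1 library.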
